A study of Mus musculus with 6 samples.

Results

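Transcripts of 10 genes that are read as targets of BMP signaling, or that restrain it, were described in mouse ESC-derived NMPs after 2 h of treatment with RA. The genes are Id1, Id2, Id3, Id4, Smad6, Smad7, Msx1, Msx2, Bambi and Fst, 10 of the 20631 genes in the files, and were found by their symbols in the table of every sample. All 10 passed the filter on low counts and were among the 15143 genes tested. The list was proposed with results from these samples in view, so that the values of its genes are given as a description with no p-value.

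Neuromesodermal progenitors (NMPs) of the caudal embryo supply both the spinal cord and the presomitic mesoderm. Retinoic acid (RA) is a ligand of nuclear receptors that bind DNA and regulate transcription. The cells were derived from mouse ESCs, whose strain the labels give as 129 R1 while the methods name C57BL/6, and both groups of RA samples and the controls share this origin. ESCs that had been kept on fibroblast feeders received bFGF for 2 days and then bFGF with the WNT agonist CHIR99021 for 1 day, in medium free of retinoids. Both agents were then removed, and duplicate dishes received the DMSO vehicle, RA at 25 nM or RA at 1 µM for the last 2 h. Each duplicate is its own dish, a technical replicate by the methods, so the spread and the p-values below measure only differences between dishes. The depth, as the sum of estimated counts, ran from 31753556 to 42029348 per sample. The NMP marker T lay at 367 to 380 RPKM (reads scaled to transcript length and to the reads of the sample) in all 6 samples, and Sox2, the other defining marker, was detected in each, at 5.21 and 5.20 RPKM in DMSO and 15.2 to 17.3 RPKM in the RA samples. The pluripotency factor Pou5f1, which is also expressed in caudal epiblast, was detected at a high level, at a mean of 445 RPKM in DMSO. The markers of pluripotent cells on the list summed to 459 to 495 RPKM, and Pou5f1 made up most of this. Nanog, Zfp42, Klf4 and Esrrb averaged 19.3, 5.11, 0.562 and 0.411 RPKM in DMSO.

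BMPs are secreted ligands that assemble type I and type II receptors, which phosphorylate Smad1, Smad5 and Smad9. These enter the nucleus with Smad4 and activate genes that include those of the Id proteins, which bind E proteins and keep them from DNA. Other targets feed back on the pathway. Smad6 and Smad7 block the receptors or their Smads inside the cell, and Bambi is a receptor-like protein without a kinase. Fst (follistatin) binds activins tightly and some BMPs less tightly outside the cell. In the embryo, BMP signaling near the primitive streak favors ventral and lateral mesoderm, and its antagonists permit neural and axial fates.

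Promoter sequences are shown for 4 of the genes, since a reader may ask whether the letters bound by Smads or by RA receptors lie close to their start sites. Each is the window of 250 bases before the start site in RefSeq (GRCm38.p6), written 5′ to 3′ on the strand of the gene, with 2 kinds of motif in capitals, the palindrome GGCGCC that Smad1 and Smad5 can bind and the half-sites of RA receptors (AGGTCA or GGGTCA, or else AGTTCA or GGTTCA, on either strand). Id2 (chr12:25096093-25096342, minus strand) and Id4 (chr13:48260866-48261115, plus strand) each hold GGCGCC. Id3 (chr4:136143572-136143821, plus strand) holds neither motif, and Msx1 (chr5:37824586-37824835, minus strand) holds a half-site. The start of Id4 in RefSeq lies upstream of the start of its transcript in the files.
Id2: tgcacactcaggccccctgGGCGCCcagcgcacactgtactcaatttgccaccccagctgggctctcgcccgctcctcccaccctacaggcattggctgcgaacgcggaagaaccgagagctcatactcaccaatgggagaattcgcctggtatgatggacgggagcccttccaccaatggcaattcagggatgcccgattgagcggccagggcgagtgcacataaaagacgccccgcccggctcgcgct
Id3: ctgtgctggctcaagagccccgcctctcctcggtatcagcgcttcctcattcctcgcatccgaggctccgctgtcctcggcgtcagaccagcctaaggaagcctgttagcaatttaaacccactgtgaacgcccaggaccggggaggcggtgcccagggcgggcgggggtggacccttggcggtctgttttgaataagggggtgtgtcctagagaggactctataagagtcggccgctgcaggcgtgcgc
Id4: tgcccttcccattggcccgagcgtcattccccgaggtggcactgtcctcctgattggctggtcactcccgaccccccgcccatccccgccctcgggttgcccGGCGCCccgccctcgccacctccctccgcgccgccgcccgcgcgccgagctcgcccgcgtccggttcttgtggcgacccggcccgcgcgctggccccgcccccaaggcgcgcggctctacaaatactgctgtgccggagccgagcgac
Msx1: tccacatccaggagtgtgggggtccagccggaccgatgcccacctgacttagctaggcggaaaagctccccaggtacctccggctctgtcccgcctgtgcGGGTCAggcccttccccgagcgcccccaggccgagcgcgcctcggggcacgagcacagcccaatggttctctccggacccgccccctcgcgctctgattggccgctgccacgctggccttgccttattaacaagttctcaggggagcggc

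Windows were examined for 6 of the 10 genes, the above and those of Smad6 and Msx2. None was available for Id1 or Fst, and none was used for Smad7 or Bambi. GGCGCC was found in 2 of the 6, at 231 bases before the start site in Id2 and 148 bases before it in Id4, and in 9.59% of all 32851 windows of this length. The short Smad motif GTCT, or its complement AGAC, was found in 4 of the 6 and in 82.9% of all windows. An RA receptor half-site was found in 1 of the 6, at 150 bases before the start site of Msx1, and in 38.6% of all windows. Direct repeats of these half-sites with a spacer of 2 or of 5 bases, the forms that RA receptors most often bind, were in 0.174% and 0.0883% of all windows and in none of the 6. A match here is a description of letters, and the lack of one speaks only of this window.

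Fst was by far the most abundant of the 10 genes, and Id1 and Id3 came next. On the RPKM scale, which corrects for transcript length, Fst averaged 107 ± 4.96 (SD, n = 2) in DMSO and ranked 580 of 20631 genes. Id1 (16.1 ± 0.446) and Id3 (14.4 ± 0.275) followed, and their samples did not overlap. Id2 averaged 6.62 ± 0.172. Smad6, Bambi and Msx1 formed a group of similar level, at 3.35 ± 0.174, 2.98 ± 0.015 and 2.68 ± 0.148, in which the samples of each neighboring pair were separate but close. Smad7 averaged 1.71 ± 0.091. Id4 (0.416 ± 0.093) and Msx2 (0.237 ± 0.072) were near the limit of what this depth measures, with 17 to 40 estimated counts per sample.

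**Figure D1:**
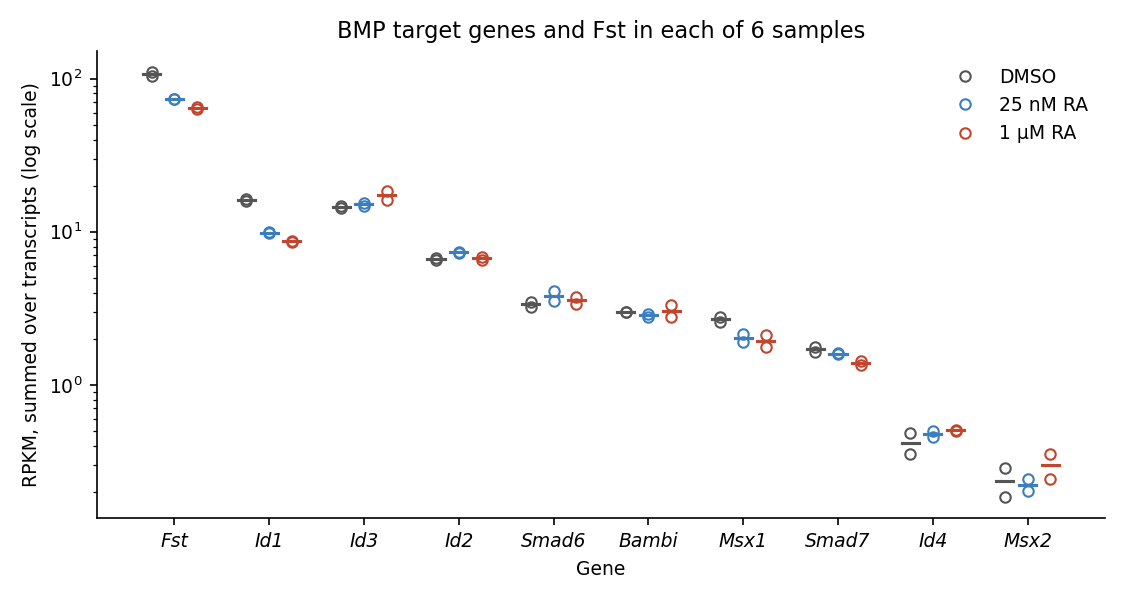
RPKM of each gene, summed over its transcripts, on a log axis, with 1 circle per sample (2 per condition) and a bar at the mean of the duplicates. Fst and Id1 show DMSO samples clear above all RA samples, Msx1 shows the same at a lower level, and the circles of Id2, Smad6, Bambi, Id4 and Msx2 lie close together or overlap between conditions.

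With 25 nM RA, Fst, Id1 and Msx1 were called lower and none of the 10 was called higher. With 1 µM RA, Fst, Id1, Msx1 and Smad7 were called lower and Id3 was called higher. A call here is an adjusted p under 0.1 in the likelihood ratio test of edgeR, adjusted by Benjamini-Hochberg over all 15143 genes. Nothing is read from these counts, because the list was chosen with such results known. For comparison, 4.5% of all genes tested were called higher and 3.55% lower with 25 nM RA, and 8.54% were called higher and 11.2% lower with 1 µM RA. The median log2 difference of the 10 genes was -0.08 at 25 nM and 0.02 at 1 µM, while that of all genes tested was 0.00 at both doses. The doses share their DMSO controls, so the values of one dose are not independent of those of the other. Scaling by total counts alone changed the split of calls over all genes at 1 µM from 1293 higher and 1690 lower to 976 higher and 1955 lower.

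**Figure D2:**
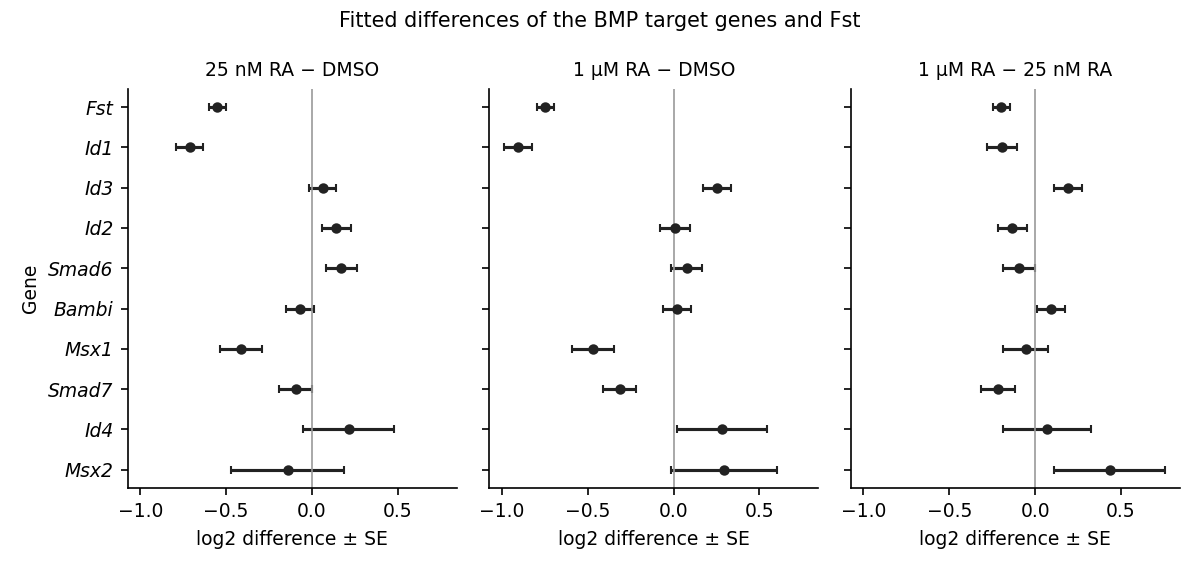
Fitted log2 difference of each gene (horizontal axis) in the 3 comparisons, with bars for the standard error of the fit to all 6 samples. Fst and Id1 lie farthest below 0 at both doses, from -0.55 to -0.90, and the wide bars of Id4 and Msx2 reflect their low counts.

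The Id genes did not move together. Id1, which encodes an inhibitor of E proteins and is a widely used readout of BMP signaling, stood at 15.8 and 16.5 RPKM in DMSO, at 9.74 and 9.96 under 25 nM RA and at 8.71 and 8.60 under 1 µM RA. Every RA sample lay below both DMSO samples, and the samples of each dose were separate. Its estimated counts were 761 and 650 in DMSO, 350 and 450 at 25 nM, and 353 in each sample at 1 µM. The fitted log2 difference from DMSO was -0.71 ± 0.08 (SE) at 25 nM and -0.90 ± 0.08 at 1 µM, which leave 61.0% and 53.4% of the control level. Thus 78.7% of the log2 difference seen at 1 µM was present at 25 nM. Both doses were called under all 16 alternative settings of the analysis. The direct difference of 1 µM from 25 nM, -0.19 ± 0.09, was not called, with a 95% interval of -0.36 to -0.02. Id1 lies on chromosome 2 (mm10, 152736251 to 152737410, plus strand) as transcript NM_010495, and no other annotated gene overlaps it.

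Id3, the family member next in level, stood at 14.2 and 14.6 RPKM in DMSO, 15.5 and 14.7 at 25 nM, and 18.3 and 16.2 at 1 µM. Both samples at the high dose lay above all others, and they were also the pair farthest apart. The log2 difference was 0.06 ± 0.08 at 25 nM, with a 95% interval of -0.10 to 0.22, and 0.25 ± 0.08 at 1 µM. The call at 1 µM was not made without replicate 1 of 1 µM RA, where the difference was 0.15 ± 0.09, nor without replicate 1 of DMSO, where it was 0.23 ± 0.10, and it was also absent with DESeq2 and with transcripts tested separately. Id3 lies on chromosome 4 (136143822 to 136145392, plus strand, NM_008321).

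Id2 stood at 6.50 and 6.75 RPKM in DMSO, 7.34 and 7.30 at 25 nM, and 6.54 and 6.85 at 1 µM. The samples at 1 µM overlapped those in DMSO, and the samples at 25 nM were above both. Its log2 difference was 0.14 at 25 nM (95% interval -0.02 to 0.31) and 0.01 at 1 µM (-0.16 to 0.18), and neither was called. Id4, with 29 to 40 estimated counts, ranged from 0.350 to 0.507 RPKM over all 6 samples, and its intervals, -0.30 to 0.73 at 25 nM and -0.23 to 0.79 at 1 µM, leave changes in both directions possible. Its 5′ part overlaps the antisense gene A330033J07Rik and the lincRNA Gm49291 on the other strand. The library kit keeps strand, and whether the counting used it is not given in the sources used here.

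The makeup of the Id family therefore differed between control and RA samples. The 4 genes summed to 37.6 ± 0.985 RPKM (SD, n = 2) in DMSO, 32.7 ± 0.360 under 25 nM RA and 33.1 ± 1.40 under 1 µM RA. Id1 made up 42.9% ± 0.061 of this sum in DMSO, 30.1% ± 0.806 under 25 nM RA and 26.2% ± 0.872 under 1 µM RA. Id3 made up 38.4% ± 0.275, 46.1% ± 1.08 and 52.1% ± 2.47 in the same order. Id1 was thus the most abundant Id transcript in both DMSO samples, and Id3 was the most abundant in all 4 RA samples. Id2 held 17.6% ± 0.005, 22.3% ± 0.162 and 20.3% ± 1.52 of the sum, and Id4 at most 1.58% in any sample.

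**Figure D3:**
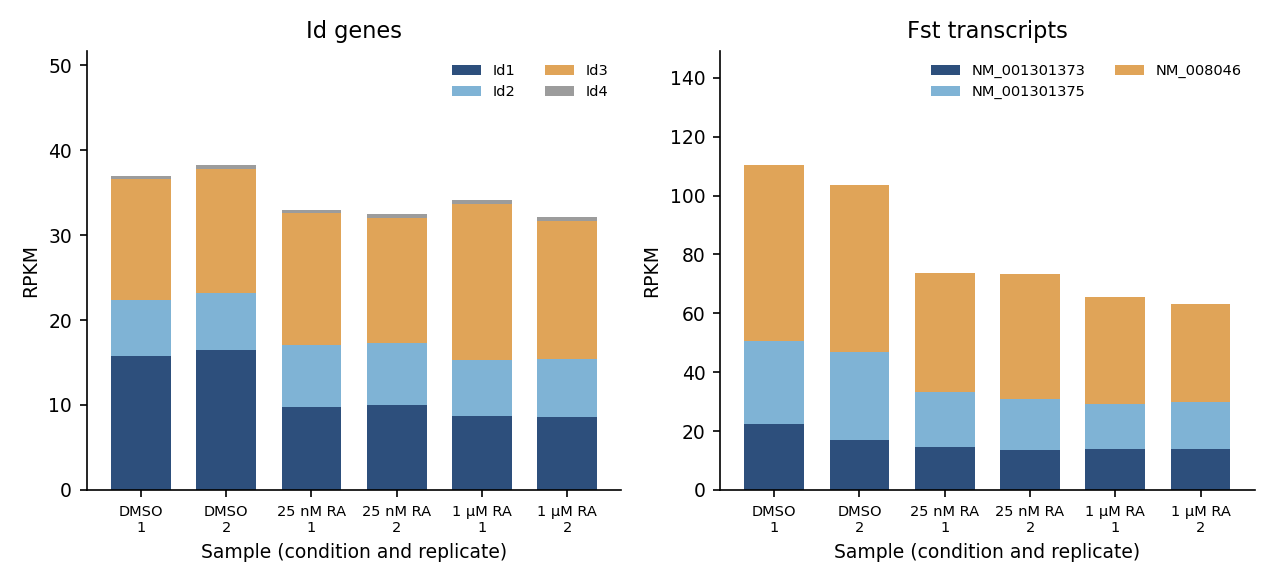
Stacked RPKM (vertical axis, from 0) per sample of the 4 Id genes on the left and of the 3 Fst transcripts on the right, 2 samples per condition. On the left the Id1 part shrinks from about the size of the Id3 part in DMSO to well below it with RA, and on the right the 3 transcripts keep similar shares while the whole bar drops from 111 and 104 to between 63.0 and 73.5.

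Fst, the secreted antagonist, was lower at both doses. Summed over its transcripts, Fst stood at 111 and 104 RPKM in DMSO, 73.5 in each sample at 25 nM, and 65.6 and 63.0 at 1 µM. No sample of any condition overlapped another condition. The log2 difference from DMSO was -0.55 ± 0.05 at 25 nM and -0.75 ± 0.05 at 1 µM, or 68.3% and 59.6% of the control level, and 73.7% of the latter difference was present at 25 nM. These calls were made under all 16 alternative settings. The direct difference of 1 µM from 25 nM was -0.20 ± 0.05, and Fst was the only one of the 10 genes called between the doses, where 0.792% of all genes were called higher and 2.62% lower with 1 µM RA. That call was not made without either of the 25 nM samples (-0.20 ± 0.07 and -0.19 ± 0.07), nor without replicate 2 of 1 µM RA (-0.16 ± 0.06).

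Fst lies on chromosome 13 (114452262 to 114458951, minus strand), and the files hold 3 transcripts that share the boundaries of exons 2 to 4. NM_008046 encodes 343 codons. In the GENCODE models matched to these transcripts, NM_001301373 has an exon 5 that begins 3 bases earlier than that of NM_008046 and encodes 344 codons. The model of NM_001301373 is also longer in exon 1, of 448 against 85 bases, and in exon 6, of 536 against 164 bases. These differences in the outer exons belong to the GENCODE models. NM_001301375 shares the exon 5 of NM_001301373 and has an exon 6 that begins 300 bases earlier. It encodes 317 codons, the short form of follistatin, which lacks the acidic tail of the long form and binds cell surfaces more tightly. In the deposited files these transcripts start and end at the same positions, with lengths of 2558 bases for NM_008046, 2561 for NM_001301373 and 2861 for NM_001301375. Reads were 50 bases long, the split among the 3 is the authors' estimate, and the number of reads that tell them apart is not known here. The antisense gene Gm47040 overlaps the 5′ end of Fst.

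All 3 Fst transcripts were lower with RA. NM_008046, the most abundant, stood at 59.8 and 56.7 RPKM in DMSO, 40.3 and 42.8 at 25 nM, and 36.3 and 33.1 at 1 µM. The short form NM_001301375 stood at 28.5 and 29.8, 18.7 and 17.3, and 15.2 and 16.1 in the same order. NM_001301373 stood at 22.3 and 17.0, 14.6 and 13.4, and 14.1 and 13.8. The conditions did not overlap for the former pair, and for NM_001301373 the 2 doses overlapped below DMSO. In a fit of transcripts, the log2 differences at 25 nM and 1 µM were -0.49 ± 0.07 and -0.75 ± 0.07 for NM_008046, -0.70 ± 0.07 and -0.90 ± 0.07 for the short form, and -0.49 ± 0.13 and -0.50 ± 0.13 for NM_001301373. The short form made up 27.3% ± 2.15 (SD, n = 2) of Fst in DMSO, 24.5% ± 1.34 under 25 nM RA and 24.4% ± 1.71 under 1 µM RA. Its shares of 25.8% and 28.8% in the DMSO samples lay above those of the RA samples, from 23.2% to 25.6%, by a gap smaller than the spread of the duplicates, and whether transcripts differed in their response was not tested.

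Msx1 and Msx2 encode homeobox repressors that act downstream of BMPs in the dorsal neural tube and lateral plate. Msx1 stood at 2.57 and 2.78 RPKM in DMSO, 2.14 and 1.90 at 25 nM, and 2.11 and 1.76 at 1 µM. All RA samples lay below both DMSO samples, and the doses overlapped. The log2 difference was -0.41 ± 0.12 at 25 nM and -0.47 ± 0.12 at 1 µM, and 88.5% of the latter was present at 25 nM. This share has no error of its own. The direct difference of 1 µM from 25 nM was -0.05 ± 0.13 and was not called. The call at 25 nM was not made without replicate 2 of DMSO (-0.35 ± 0.15) or replicate 2 of 25 nM RA (-0.33 ± 0.16), and the call at 1 µM was not made without replicate 2 of 1 µM RA (-0.34 ± 0.15). Neither was made with DESeq2 or with transcripts tested separately, where the differences were -0.41 ± 0.21 and -0.47 ± 0.21. Msx2 had 17 to 33 estimated counts, and its intervals, -0.79 to 0.51 at 25 nM and -0.31 to 0.90 at 1 µM, include 0 and, at 25 nM, the difference of Msx1.

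Of the feedback inhibitors, Smad7 alone was called. Smad7 stood at 1.64 and 1.77 RPKM in DMSO, 1.62 and 1.58 at 25 nM, and 1.34 and 1.42 at 1 µM. The samples at 1 µM lay below all others, while those at 25 nM lay just under those in DMSO. The log2 difference was -0.10 ± 0.09 at 25 nM, with a 95% interval of -0.28 to 0.09, and -0.31 ± 0.10 at 1 µM. The call at 1 µM was not made without replicate 2 of DMSO (-0.25 ± 0.11) or replicate 1 of 1 µM RA (-0.28 ± 0.12), and was absent with DESeq2 and with transcripts tested separately. Smad6 ranged from 3.23 to 4.08 RPKM, its samples at 1 µM overlapping both other conditions, and its differences were 0.17 (95% interval -0.01 to 0.35) and 0.08 (-0.10 to 0.26). Bambi ranged from 2.77 to 3.30 RPKM, and its differences were -0.07 (-0.23 to 0.09) and 0.02 (-0.14 to 0.18). The lower bounds of all 4 intervals lie above the differences of Id1 and Fst at either dose.

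Fst and Id1 were each set beside the genes whose values over the 6 samples were most like theirs, measured as the Euclidean distance between log2 profiles centred on their own means, among 15143 genes. The 5 genes most like Fst were Zic2, Gcnt2, Sgk1, Arid5b and Zfp36l2, at distances of 0.073 to 0.101, against 0.777 for the spread of Fst itself. Zic2, a zinc finger factor of the neural plate, had RPKM values of 32.3 and 29.7 in DMSO, 21.5 and 21.2 at 25 nM, and 19.2 and 17.4 at 1 µM. The 5 genes most like Id1 were Evx1, Kcna1, Adamts15, Foxj2 and Zfp608, at distances of 0.097 to 0.150, against 0.954 for Id1 itself. Evx1, a homeobox factor of the primitive streak, stood at 10.14 and 10.04, 6.37 and 6.15, and 5.73 and 5.46 RPKM. Fst and Id1 were 0.215 apart, which made Id1 the gene ranked 29 for Fst and Fst the gene ranked 11 for Id1.

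Other genes of the BMP and activin pathways were taken from a list of 53, of which 52 were in the files and 47 were tested. This list was also chosen with earlier results of these data known. The p-values given for its genes are therefore a description and not an independent test. By the same test, adjusted over all genes, 5 rose and 9 fell with 25 nM RA, 5 rose and 14 fell with 1 µM RA, and 2 were higher and 3 lower with 1 µM than with 25 nM. Of all genes tested, 4.5% were called higher and 3.55% lower with 25 nM RA, and 8.54% higher and 11.2% lower with 1 µM RA. Between the doses, 0.792% were called higher and 2.62% lower with 1 µM RA. The same shares stand beside the counts by role and of markers below, and nothing is read from these counts. Their median log2 difference was -0.06 at 25 nM and -0.09 at 1 µM, beside 0.00 for all genes. The 21 genes called in any comparison included 15 that are described here and 6 with larger adjusted p, Smurf1, Acvr2b, Bmper, Dand5, Tob1 and Bmp8b.

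**Figure D4:**
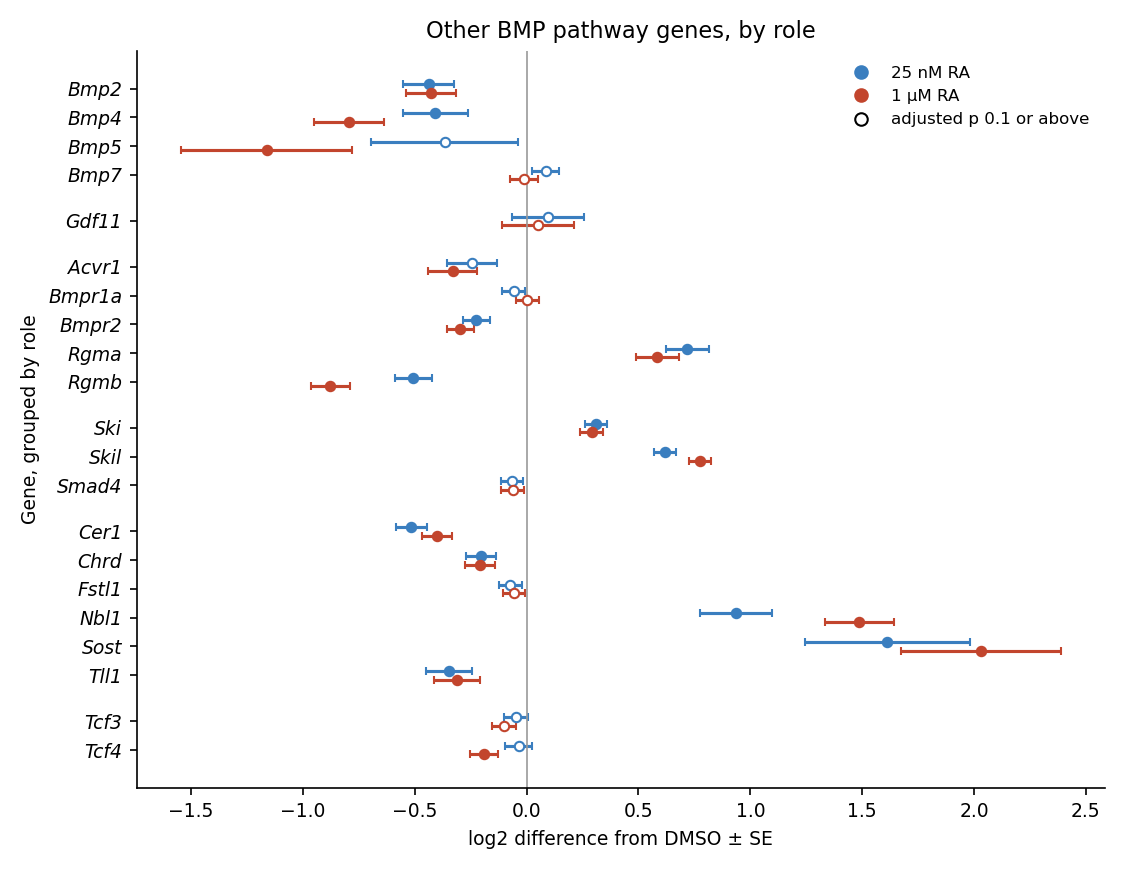
Fitted log2 difference from DMSO (horizontal axis) with its standard error for 21 other pathway genes, grouped by role from ligands at the top to E proteins at the bottom. Filled circles passed an adjusted p of 0.1. Nbl1, Sost, Skil, Rgma and Ski lie above 0, and the ligands Bmp2 and Bmp4 and the co-receptor Rgmb lie below it.

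Among the BMP ligands, 3 of 8 tested fell at each dose and none rose. Bmp4 stood at 1.46 and 1.41 RPKM in DMSO, 1.10 and 1.08 at 25 nM, and 0.809 and 0.856 at 1 µM, with no overlap between conditions. Its log2 difference was -0.41 ± 0.15 at 25 nM (adjusted p = 0.073, edgeR's likelihood ratio test), which was lost under 10 of 16 alternatives, including that without either DMSO sample or either 25 nM sample, and -0.79 ± 0.16 at 1 µM (adjusted p = 6.8e-06), which was lost under none. Bmp2 fell by 0.44 on the log2 scale at 25 nM and by 0.43 at 1 µM (edgeR adjusted p = 0.0030 and 0.0019), and neither call was made with DESeq2 or with transcripts tested separately. Bmp5 fell at 1 µM, by 1.16 (edgeR adjusted p = 0.014), from 30 and 23 estimated counts to 16 and 6, and the difference was -0.61 ± 0.44 without replicate 2 of 1 µM RA, -2.04 ± 0.64 without replicate 1, and not called without replicate 1 of DMSO. Bmp7, the ligand of highest level at 8.56 ± 0.510 RPKM in DMSO, was not called, with 0.09 and -0.01. None of 3 tested activin-type ligands was called, and Gdf11, the highest of them, had differences of 0.10 and 0.05.

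The type I receptor Bmpr1a, at 23.9 ± 0.575 RPKM in DMSO, was not called, with -0.06 and 0.00. The type II receptor Bmpr2 fell by 0.22 at 25 nM and by 0.30 at 1 µM (edgeR adjusted p = 0.0049 and 1.9e-05), and the type I receptor Acvr1 fell by 0.33 at 1 µM (edgeR adjusted p = 0.023). The 25 nM call of Bmpr2 was not made without replicate 2 of DMSO (-0.18 ± 0.08) or replicate 1 of 25 nM RA (-0.21 ± 0.08), nor the 1 µM call of Acvr1 without replicate 2 of DMSO (-0.30 ± 0.13) or of 1 µM RA (-0.31 ± 0.14). Of the 9 receptors and co-receptors tested, 1 rose and 2 fell at 25 nM, and 1 rose and 4 fell at 1 µM. The co-receptors of the repulsive guidance family moved in opposite directions. Rgma rose by 0.72 and 0.58 (edgeR adjusted p = 3.4e-12 and 4.3e-08), from 1.86 and 1.77 RPKM in DMSO to between 2.70 and 3.27 in the RA samples. Rgmb fell by 0.51 and 0.88 (edgeR adjusted p = 5.6e-08 and 3.2e-22), from 4.56 and 4.62 RPKM to 3.42 and 3.09 and then to 2.51 in each sample, and its direct difference of 1 µM from 25 nM was -0.37 ± 0.09 (edgeR adjusted p = 0.0060), a call not made without replicate 1 of 25 nM RA (-0.31 ± 0.11).

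Inside the cell, the 2 genes that rose at both doses, of 9 tested, were Skil and Ski, which encode corepressors that bind Smads. Skil stood at 25.4 and 24.9 RPKM in DMSO, 38.6 and 38.8 at 25 nM, and 44.3 and 42.3 at 1 µM. Its log2 differences were 0.62 ± 0.05 and 0.78 ± 0.05 (edgeR adjusted p = 7.9e-33 and 3.8e-52). Ski rose by 0.31 and 0.29 (edgeR adjusted p = 6e-08 and 3e-07). At 1 µM, 2 of the 9 also fell, Smurf1 and Tob1. Smad4, the shared partner, stayed between 27.4 and 28.9 RPKM with differences of -0.06 at both doses, and was not called. Of the E proteins that Id proteins bind, Tcf3 had -0.05 and -0.10 and was not called, and Tcf4 fell by 0.19 at 1 µM (edgeR adjusted p = 0.015), though not without replicate 1 of DMSO (-0.14 ± 0.08) or replicate 2 of 1 µM RA (-0.13 ± 0.07).

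Of the 15 other secreted modulators tested, 2 rose and 4 fell at each dose. Nbl1, a BMP antagonist of the DAN family, rose by 0.94 and 1.49 (edgeR adjusted p = 2.3e-07 and 4e-22), from 0.893 and 0.818 RPKM in DMSO to 1.74 and 1.57 and then to 2.33 and 2.52. Sost, which binds BMPs weakly and inhibits WNT signaling, rose by 1.61 and 2.03 (edgeR adjusted p = 0.00012 and 1.3e-08), but from only 8 and 14 estimated counts to 29 and 34 and then to 46 and 39. Without replicate 1 of DMSO the difference of Sost at 25 nM was 1.12 ± 0.44 and not called, and without replicate 2 of DMSO it was 2.21 ± 0.55. Cer1, an antagonist of BMPs and Nodal that is expressed in anterior endoderm and mesoderm, fell by 0.52 and 0.40 (edgeR adjusted p = 8.4e-12 and 1.4e-07). Chrd (chordin) fell by 0.20 and 0.21 (edgeR adjusted p = 0.038 and 0.016), and Tll1, a protease that cleaves chordin, fell by 0.35 and 0.31 (edgeR adjusted p = 0.016 and 0.020). The call of Chrd at 25 nM was not made without any 1 of the 4 samples compared, its difference turned to 0.12 with transcripts fitted separately, and its call at 1 µM was not made without replicate 1 of DMSO (-0.19 ± 0.09). Tll1 was not called at 25 nM without replicate 2 of DMSO (-0.31 ± 0.13) or either sample at that dose, nor at 1 µM without replicate 2 of DMSO (-0.27 ± 0.12) or of 1 µM RA (-0.23 ± 0.13). With DESeq2 and with transcripts tested separately, the calls of Chrd and Tll1 at both doses, of Acvr1 at 1 µM and of Rgmb between the doses were also not made, and those of Bmp5 and Tcf4 at 1 µM were not made with transcripts tested separately. Fstl1, related to Fst by sequence and at 22.3 ± 0.128 RPKM in DMSO the highest of these, was not called, with -0.07 and -0.06. In DMSO the level of Fst was thus above that of each of these other modulators.

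Markers of other cell types that such cultures could hold moved along with these genes in part, and their part in the results was not tested. The marker lists too were chosen with earlier results of these data known, so their p-values are likewise a description. In bulk RNA, fewer cells of a type and less RNA per cell cannot be told apart. All 3 definitive endoderm markers on the list were called lower at both doses, and their sum was 30.5 and 30.6 RPKM in DMSO, 24.1 and 23.7 at 25 nM, and 21.7 and 21.8 at 1 µM. Sox17, a defining marker, fell by 0.58 and 0.98 (edgeR adjusted p = 8.3e-15 and 3.5e-39) and Foxa2 by 0.37 and 0.56 (edgeR adjusted p = 1.8e-07 and 9.6e-17). Gata6 fell less, by 0.19 at 25 nM and 0.14 at 1 µM. Of 6 tested markers of lateral plate and other BMP-responsive tissues, Isl1 fell by 0.80 and 1.18 (edgeR adjusted p = 0.0031 and 1.7e-06) and Tbx3 rose by 1.58 and 1.81 (edgeR adjusted p = 3e-10 and 6.4e-15). Tbx3 started from only 29 and 24 estimated counts in DMSO. The sum of all 9 listed was 6.47 to 7.77 RPKM with the conditions overlapping. Gata4 alone, at 5.19 to 6.42 RPKM, made up most of this sum. The 7 feeder fibroblast markers summed to 5.94 and 6.27 RPKM in DMSO, 5.82 and 6.02 at 25 nM, and 5.43 and 5.26 at 1 µM, and 3 of 6 tested were called lower at 1 µM and 0 at 25 nM. Of the 7 listed, Dcn was at 0.043 to 0.166 RPKM and was not among those called lower. Lum was at or near 0 in all samples and was not tested. None of 5 markers of pluripotent cells was called at either dose. Of the 4 NMP markers, Sox2 rose 2.95-fold at 25 nM and 3.12-fold at 1 µM (edgeR adjusted p = 2.4e-100 and 3.1e-112). Nkx1-2 rose 2.03-fold and 1.98-fold (edgeR adjusted p = 2.5e-75 and 4.0e-70), from 39.3 and 38.9 RPKM in DMSO to between 74.8 and 81.2 in the RA samples. Cdx2 rose by 0.24 on the log2 scale at 25 nM (edgeR adjusted p = 0.054) and had 0.02 at 1 µM, and T was not called at either dose.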

How the data were processed

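Ribosomal RNA-depleted total RNA of 6 samples, 2 per condition as the labels group them, was sequenced as single reads of 50 bp. The authors aligned reads to mm10 with TopHat2 2.0.13 and Bowtie2 2.2.5.0, and their processing notes also name FastQC 0.11 and Partek 6.6. The authors deposited an estimated count for each of 30352 RefSeq transcripts, made by expectation-maximization and not normalized. They also deposited RPKM values, for which the authors divided reads by the length of the transcript and the total of the sample.

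Here estimated counts were summed per gene, rounded, and fitted for all 6 samples in edgeR 4.0.16 (R 4.3.3) with TMM factors of 0.98929 to 1.00779, filterByExpr, and the likelihood ratio test of generalized linear models that the methods name. P-values were adjusted by Benjamini-Hochberg over 15143 genes, and calls were made at 0.1. RPKM was summed over transcripts for levels. Errors are SDs of duplicates or standard errors of the fit.

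The genes described and the pathway and marker lists were chosen with earlier results of these data known. Named pathway genes were the 15 with the smallest adjusted p among those called, and the gene of highest RPKM in DMSO in each role group. The genes most like Fst and Id1 were the 5 nearest. Alternatives were the quasi-likelihood test, DESeq2 1.42.0, other scalings and filters, a replicate block and a fit of only the 4 samples compared. They also included transcripts fitted separately, an adjusted p under 0.05, and each sample left out. The test was also run on counts simulated from its own fit to these samples, which does not check the spread that the fit assumes. Python 3.11.15 with pandas 2.3.3 and numpy 2.4.6 made the tables, scipy 1.17.1 the intervals, and matplotlib 3.10.9 the figures. Gene overlaps and the exons of Fst are from the GENCODE annotation of GRCm38 and promoter windows from RefSeq.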

Additional observations from a re-analysis of the deposited data

How the results depend on the processing

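No called difference of the 10 genes changed sign under any of the 16 alternatives, and the calls of Id1 and Fst at both doses against DMSO were made under each. With DESeq2 the number of the 10 genes called at 1 µM was 2, against 5, and with transcripts fitted separately it was also 2. In the transcript fit, Id3, Smad7 and Msx1 had differences of 0.25 ± 0.12, -0.32 ± 0.15 and -0.47 ± 0.21 at 1 µM. These differences were close to those of the gene fit, and the standard errors were larger. DESeq2 called 8, 9 and 1 of the other pathway genes (25 nM, 1 µM, and 1 µM against 25 nM), against 14, 19 and 5, and 548, 1549 and 154 of all genes, against 1219, 2983 and 516. Transcripts fitted separately gave 8, 10 and 0 pathway genes and 508, 1253 and 184 of all genes, and there the difference of Chrd at 25 nM turned to 0.12. Between the doses, the quasi-likelihood test gave 3 pathway genes and 336 of all genes, and an adjusted p under 0.05 gave 2 and 340. With a sample left out, the calls among the 10 genes ranged from 2 to 3, 3 to 5 and 0 to 1, among the other pathway genes from 8 to 14, 13 to 19 and 1 to 5, and among all genes from 799 to 1345, 1922 to 2838 and 205 to 577. Without replicate 2 of 1 µM RA the 1 call between the doses was Id3, not Fst. Where this left 1 sample in a condition, that sample was assumed to vary like the others. The causes of these shifts were not tested. At 17 to 40 estimated counts per sample, the intervals of Id4 and Msx2 were the widest of the 10 genes, so that depth limits what can be said of both.

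Samples with the same replicate number did not deviate together over the genes tested (correlations of -0.04, 0.05 and -0.06). Handling shared by such samples that touched only a few genes would not show in these correlations. With the replicate block, 3, 5 and 1 of the 10 genes, 12, 19 and 5 of the other pathway genes, and 1138, 2756 and 423 of all genes were called.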
